A study of Homo sapiens with 2 samples.

Results

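The proteins that recognise splice sites and build the spliceosome were examined in a set of 53 genes, chosen by symbol. They comprise 12 SR proteins, 16 hnRNP proteins (heterogeneous nuclear ribonucleoproteins), 12 proteins of the small nuclear ribonucleoproteins (snRNPs), 7 LSM proteins and 6 subunits of U2AF and SF3B. Of the 53 symbols, 52 had a row among the 23608 gene rows. LSM8 had none under that symbol. The row NAA38, an older symbol of LSM8 in the RefSeq gene table, lies on chromosome 7 and had 0.35 FPKM in ribosome profiling and 0.72 FPKM in RNA sequencing, and it was not counted.

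Values come from SW13 cells, an established human line labelled as adrenal adenocarcinoma, transfected with 5 µg of Add2-Mhrt779 and Add2-Hotair, which overexpress murine non-coding RNAs, and collected after 48 hours. Lipofectamine was the transfection reagent, used at 80% confluence, in cells kept in DMEM with 10% FBS. Ribosome profiling, which sequences the RNA fragments that ribosomes protect from nuclease, gave 1 library, and sequencing of total RNA gave 1 library. Both libraries came from transfected cells, no untransfected library was used here, and no value has a replicate error. Of 10 adrenal cortex markers, 9, among them NR5A1, STAR and CYP11A1, were listed at 0 in both libraries, and NR0B1 had 1.25 FPKM in ribosome profiling and 1.60 FPKM in RNA sequencing.

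Levels are in FPKM, which divides a gene's fragments by its length and by the library's mapped fragments, and their depth is unknown. For the ratio, 1 FPKM was added to both levels, the log2 of ribosome profiling over RNA sequencing was taken, and the median of the 2734 tested genes was subtracted. Tested genes were those with a mean of at least 10 FPKM over both libraries. A positive ratio therefore lies above that of the median gene, and folds above or below the median gene compare ratios, not levels. Before the subtraction the ratio of the median gene was 1.31-fold in favour of ribosome profiling. The libraries are bulk samples, in which fewer cells of a type and less RNA per cell cannot be told apart.

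SR proteins carry stretches of arginine and serine repeats and bind exonic enhancers, where they recruit the splicing machinery. The hnRNP proteins coat nascent transcripts and often oppose SR proteins at nearby exons. In each of the U1, U2, U4 and U5 snRNPs a ring of Sm proteins encircles the small nuclear RNA, and an LSM ring takes that place in U6. U2AF and SF3B mark the polypyrimidine tract and the branch point at the 3′ end of the intron. Many SR and hnRNP genes limit their own output by splicing in exons that expose the mRNA to nonsense-mediated decay.

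Because ribosomes begin at the start codon, the windows around it are shown for the member of highest and the member of lowest ratio in each family. They are taken from the principal coding transcripts of GENCODE 29. Capitals mark the base 3 before the start codon, the start codon and the base that follows it, the positions of the Kozak context.
SRSF7: gggtctgtcAtcATGTcgcgttacgggcgg
SRSF1: ttcgtcaccGccATGTcgggaggtggtgtg
HNRNPM: gacgcggagAaaATGGcggcaggggtcgaa
HNRNPA1: caccctgccGtcATGTctaagtcagagtct
SNRPB2: tttaacacaAacATGGatatcagaccaaat
SNRPB: agaaccgccAccATGAcggtgggcaagagc
LSM3: agggtttgaAacATGGcggacgacgtagac
LSM4: cccgccggcAccATGCttcccttgtcactg
SF3B2: cctgcggctAagATGGcgacggagcatccc
SF3B5: gaaagcggcGagATGActgaccgctacacc

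A purine stood 3 bases before the start codon in 50 of the 53 genes (94.3%), against 91.3% of 2080 tested genes with a matched transcript. The G that completes the preferred context was found in none of the 12 SR genes. It was found in 9 of 16 hnRNP genes, 4 of 12 snRNP genes, 3 of 7 LSM genes and 4 of 6 genes of U2AF and SF3B, and in 52.8% of the 2080 tested genes. Of the 5 windows from the highest members, those of HNRNPM, SNRPB2, LSM3 and SF3B2 have it, and of the 5 from the lowest members none has it. These windows were picked by their ratios, so the contrast is a description and no test. Among tested members at least 2-fold below the median gene, 2 had that G and 4 did not. Over the 2080 tested genes, 159 of 1099 with that G and 144 of 981 without it were at least 2-fold below. Within the hnRNP family the median ratio was 0.49 both with and without that G, and within the snRNP family it was 0.69 and 0.71. In LSM genes it was -0.24 in 2 genes with that G and -1.14 in 2 without. In U2AF and SF3B genes it was 0.29 in 3 and -0.35 in 2. Over all tested members the median ratio was 0.51 in 18 genes with that G and 0.10 in 29 without. The 29 include all 10 tested SR genes, whose median ratio was -0.18, so the pooled medians also differ in family make-up. Over the 2080 tested genes the medians with and without that G were 0.04 and 0.05. This feature was looked at after the ratios were known, and its part in them was not tested.

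Taken over all families, the splicing proteins lay somewhat above the median gene in ribosome profiling. Of the 52 rows, 47 passed the filter. SRSF4, TRA2A, LSM5, LSM6 and SF3B4 did not. The 47 had a median ratio of 0.28, which is 1.21-fold above the median gene. Of them, 3 were at least 2-fold above it (6.38%), against 13.1% of all tested genes, and 6 were at least 2-fold below it (12.8%), against 19.7%. Without small RNA genes, which have the most extreme ratios, the shares of tested genes were 10.1% and 16.1%. Above the median gene stood 30 of 47 members (63.8%), against 50.7% of tested genes without small RNA genes. The count past 2-fold moves with the centre. With the same ratios left uncentred, 12 of the 47 members were at least 2-fold higher in ribosome profiling, against 23.6% of all tested genes, and 3 were at least 2-fold lower, against 14.2%.

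**Figure D1:**
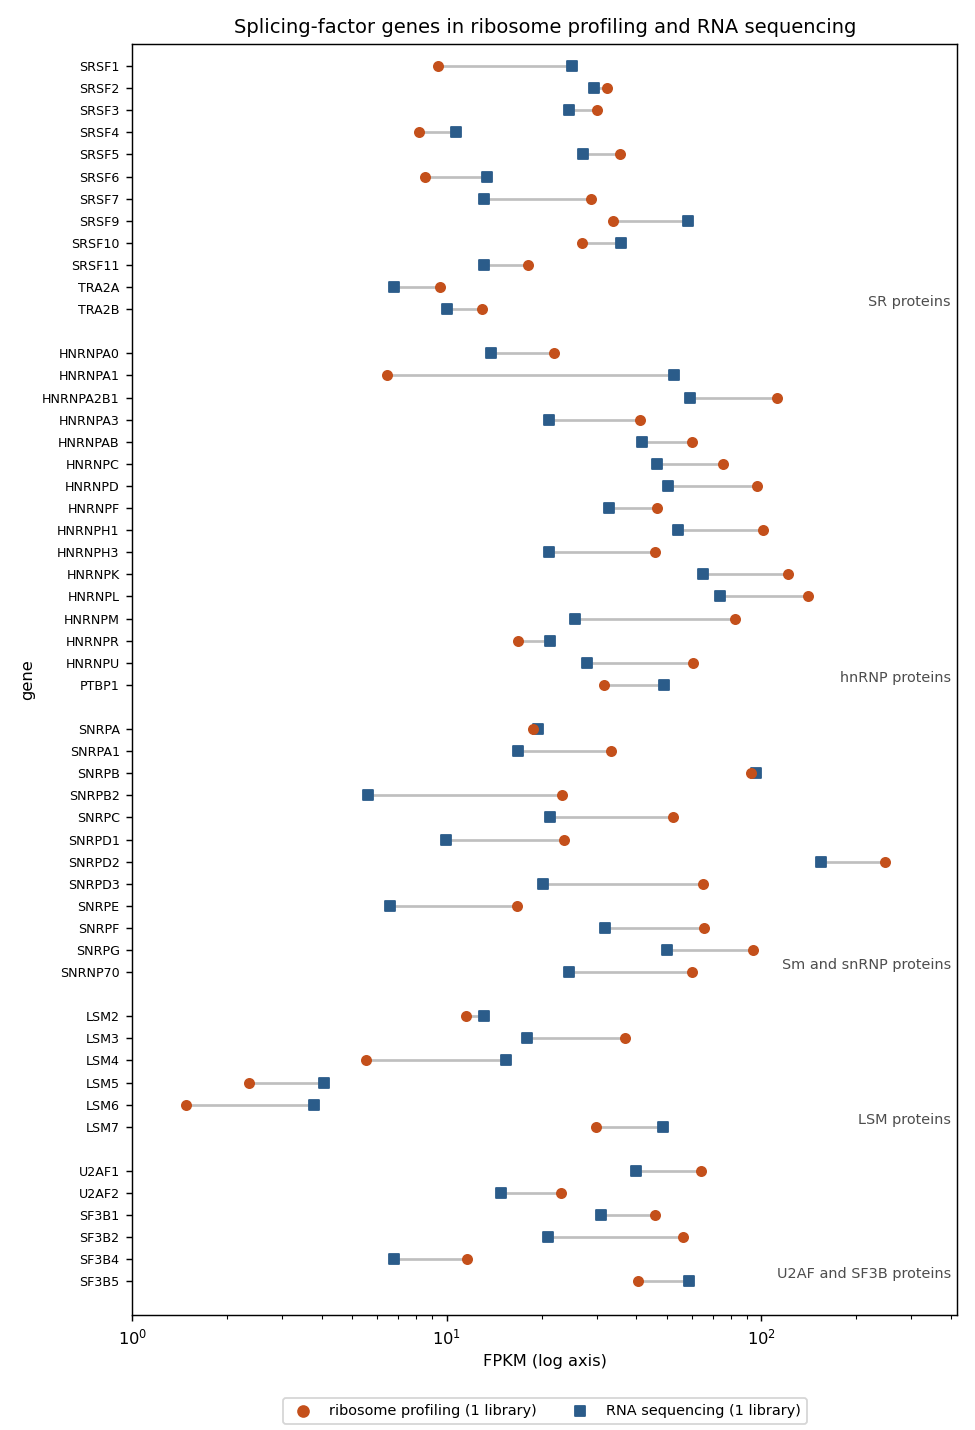
FPKM of 52 splicing-factor genes in ribosome profiling (circles) and RNA sequencing (squares), 1 library each, on a log axis, with a grey line joining the values of a gene. In deposited values 36 genes are higher and 16 lower in ribosome profiling. The median tested gene is itself 1.31-fold higher there. Over all 21856 rows without small RNA genes, of which 19445 are not tested, 5468 are higher, 8712 are lower and 7674 are at 0 in both libraries. HNRNPA1 has the longest line, with 6.47 FPKM in ribosome profiling and 52.9 FPKM in RNA sequencing.

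The model error of the authors' comparison sets how firmly single genes can be read. In the authors' deposited table no member was called, against 1.3% of the 4849 rows that it tested, and the lowest q-value of a member was 0.102, for HNRNPA1. Without adjustment, 3 members had a p-value under 0.05 in the authors' deposited table, HNRNPA1, HNRNPM and SNRPB2, against 14.2% of the rows tested there. The standard error of a member's log2 ratio there had a median of 0.87 and ran from 0.45 to 1.09. It is the error of a single gene and not of a family median.

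SR genes lay mostly below the median gene, 4 of them by 1.72-fold to 3.28-fold. The 10 tested ones had a median ratio of -0.18, 1.14-fold below the median gene, with 2 above and 8 below it. None was at least 2-fold above, against 13.1% of all tested genes. At least 2-fold below were 2 (20%), close to the 19.7% of all tested genes. Settings that move the centre for all genes alike gave an SR median of 0.20 without centring and 0.36 with a filter of 1 FPKM. Rescaling each gene to its coding length gave 0.60, on the other side of the median gene. The 12 SR rows summed to 254 FPKM in ribosome profiling and 267 FPKM in RNA sequencing. SRSF1, which promotes the use of 5′ splice sites and also shuttles to the cytoplasm, was the lowest. It had 9.38 FPKM in ribosome profiling and 25.03 FPKM in RNA sequencing, 3.28-fold below the median gene. SRSF9, the most abundant SR mRNA, had 33.8 FPKM in ribosome profiling and 58.3 FPKM in RNA sequencing, 2.23-fold below. These genes lie on chromosome 17 from 56078280 to 56084707 and on chromosome 12 from 120884241 to 120907558 in hg19, the build of the table's contigs.

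SRSF6 had 8.54 FPKM in ribosome profiling and 13.4 FPKM in RNA sequencing, 1.97-fold below the median gene. SRSF10, which acts as a repressor of splicing when dephosphorylated, had 26.9 FPKM in ribosome profiling and 35.7 FPKM in RNA sequencing, and its row sits on an unlocalised contig of chromosome 1. SRSF1, SRSF9, SRSF6 and SRSF10 were the lowest of the tested SR genes, and the other tested ones lay within 1.20-fold of the median gene or above it. SRSF2, an SR protein of nuclear speckles, had 32.2 FPKM in ribosome profiling and 29.4 FPKM in RNA sequencing. SRSF3, the smallest SR protein and an adaptor for mRNA export, had 29.99 FPKM in ribosome profiling and 24.5 FPKM in RNA sequencing. SRSF5 had 35.5 FPKM in ribosome profiling and 27.2 FPKM in RNA sequencing. SRSF2, SRSF3 and SRSF5 were thus all slightly below the median gene.

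SRSF11 had 18.1 FPKM in ribosome profiling and 13.1 FPKM in RNA sequencing, a ratio of 0.05. TRA2B, a relative of the fly splicing regulator transformer 2, had 12.9 FPKM in ribosome profiling and 10.04 FPKM in RNA sequencing, a ratio of -0.05. SRSF7, an SR protein with a zinc knuckle, was the highest of the family. It had 28.7 FPKM in ribosome profiling and 13.1 FPKM in RNA sequencing, 1.61-fold above the median gene. Below the filter, TRA2A had 9.51 FPKM in ribosome profiling and 6.77 FPKM in RNA sequencing, and SRSF4 had 8.17 FPKM in ribosome profiling and 10.7 FPKM in RNA sequencing, 1.67-fold below the median gene.

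SRSF7 had a log2 ratio of 1.13 and SRSF1 of -1.42 in the authors' deposited table, each with a standard error of 0.86. SRSF7 minus SRSF1 came to 2.55, and independent errors would give it a standard error of 1.21 and 95% bounds of 0.17 and 4.93. The pair was chosen as the extremes of the family, so these bounds are a description and no test. The same holds for the pairs of the other families. For SRSF9, SRSF5 and SRSF10 the authors' deposited table gave -0.79, 0.39 and -0.40 with standard errors of 0.89, 0.60 and 0.45.

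**Figure D2:**
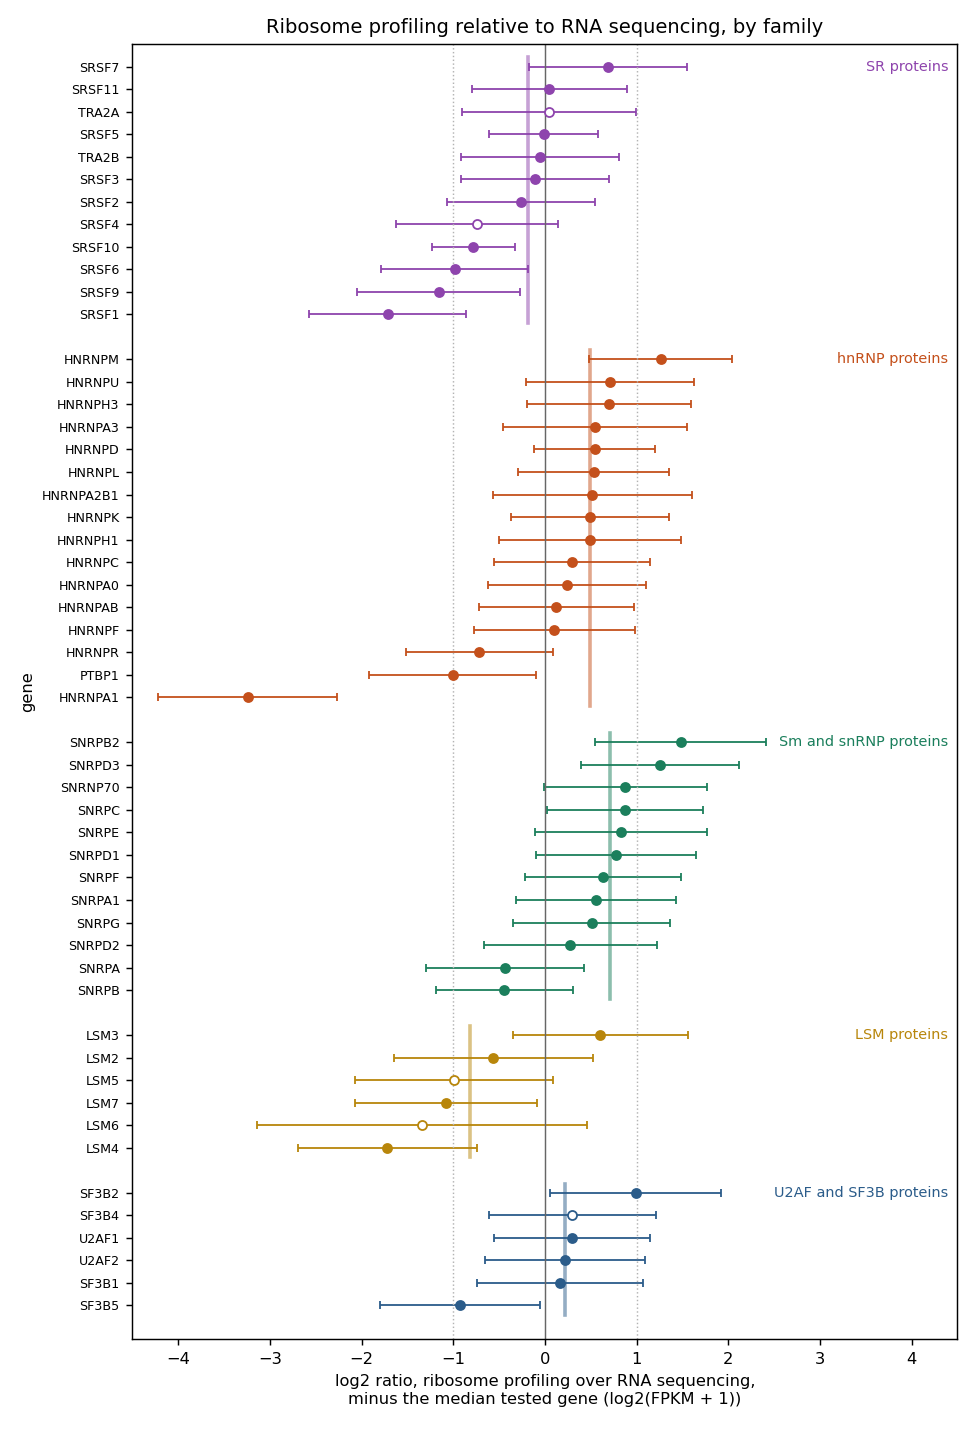
Ribosome profiling relative to RNA sequencing (log2, with the median tested gene at 0) for 52 genes in 5 families, sorted within each family. Bars are 1 standard error of the authors' model and hold no spread between cultures, open circles are genes below the filter, vertical coloured lines are family medians over tested genes, and dotted lines mark 2-fold. The medians are -0.18 for SR, 0.49 for hnRNP, 0.71 for snRNP, -0.82 for LSM and 0.22 for U2AF and SF3B genes.

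The hnRNP genes were mostly higher in ribosome profiling and, HNRNPA1 apart, close to each other. All 16 were tested, with a median ratio of 0.49, 1.41-fold above the median gene. Of these, 12 lay between the median gene and 2-fold above it, 1 was at least 2-fold above and 2 were at least 2-fold below. The last counts are 6.25% and 12.5%, against 13.1% and 19.7% of all tested genes. The standard deviation of the ratio over the 16 genes was 1.04, and 0.56 over the 15 without HNRNPA1. It was 1.29 over all tested genes without small RNA genes, from which no outlier was removed. In the other families it was 0.58 for snRNP, 0.69 for U2AF and SF3B, 0.71 for SR and 0.98 for LSM genes. Closeness of this degree is thus not particular to hnRNP genes. Their rows summed to 1061 FPKM in ribosome profiling and 657 FPKM in RNA sequencing.

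The 3 hnRNP rows of highest mean level had nearly the same ratio. HNRNPA1 summed with the rows of its copies had a higher level, as given below. HNRNPL, which binds CA-rich elements, had 140.4 FPKM in ribosome profiling and 73.6 FPKM in RNA sequencing, 1.45-fold above the median gene. HNRNPK, a poly(C)-binding protein, had 121 FPKM in ribosome profiling and 65.3 FPKM in RNA sequencing, 1.41-fold above. HNRNPA2B1 had 112 FPKM in ribosome profiling and 59.4 FPKM in RNA sequencing, 1.43-fold above. The authors' deposited table gave them log2 ratios of 0.93, 0.89 and 0.92, and standard errors of 0.82, 0.86 and 1.09. Each of the 3 was at or above the 85.3 percentile of tested genes in both libraries, counted without small RNA genes.

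HNRNPH1, which binds G-runs, had 101.2 FPKM in ribosome profiling and 54.5 FPKM in RNA sequencing. HNRNPD, also known as AUF1 and a binder of AU-rich elements, had 96.7 FPKM in ribosome profiling and 50.3 FPKM in RNA sequencing. HNRNPC, which binds U-tracts, had 75.7 FPKM in ribosome profiling and 46.6 FPKM in RNA sequencing. These also lay between 1.23-fold and 1.46-fold above the median gene. HNRNPU, a scaffold attachment factor, had 60.8 FPKM in ribosome profiling and 27.9 FPKM in RNA sequencing, 1.64-fold above. HNRNPH3 had 45.8 FPKM in ribosome profiling and 21.1 FPKM in RNA sequencing, 1.62-fold above, and HNRNPA3 had 41.2 FPKM in ribosome profiling and 21.1 FPKM in RNA sequencing, 1.46-fold above. HNRNPAB, HNRNPF and HNRNPA0 lay nearer to the median gene, with ratios of 0.13, 0.10 and 0.24. Their levels were 60.02, 46.6 and 21.9 FPKM in ribosome profiling and 41.7, 32.9 and 13.8 FPKM in RNA sequencing.

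HNRNPM, a regulator of alternative splicing that binds GU-rich sequence, was the highest of the family. It had 82.3 FPKM in ribosome profiling and 25.5 FPKM in RNA sequencing, 2.40-fold above the median gene, and lies on chromosome 19 from 8509803 to 8554002. Its log2 ratio in the authors' deposited table was 1.69 ± 0.78 (standard error), at q = 0.292. Only 3 of the 16 lay below the median gene. HNRNPR had 16.8 FPKM in ribosome profiling and 21.3 FPKM in RNA sequencing, 1.64-fold below. PTBP1, the polypyrimidine tract binding protein or hnRNP I, had 31.7 FPKM in ribosome profiling and 49.1 FPKM in RNA sequencing, 2.01-fold below.

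The row of HNRNPA1, which shuttles between nucleus and cytoplasm and represses exons, had the lowest ratio of all 52 rows. It had 6.47 FPKM in ribosome profiling and 52.9 FPKM in RNA sequencing, 9.44-fold below the median gene. This row is uncertain and may not hold the whole signal of its locus. The row HNRNPA1P10 has the same locus, and near-identical copies elsewhere have rows of their own. The sources used here do not say how reads that match several rows or places were divided. HNRNPA1P10, whose row has the same locus as HNRNPA1 on chromosome 12 from 54674488 to 54679030, had 199 FPKM in ribosome profiling and 94.4 FPKM in RNA sequencing. HNRNPA1P33 had 124 FPKM in ribosome profiling and 57.0 FPKM in RNA sequencing, and HNRNPA1L2 had 94.97 FPKM in ribosome profiling and 64.4 FPKM in RNA sequencing. All 3 of these rows were above the median gene while the row HNRNPA1 was below it. Summed over the 4 rows, an addition made after the values were seen, the level was 425 FPKM in ribosome profiling and 269 FPKM in RNA sequencing, 1.21-fold above the median gene. If reads were counted in several rows, this sum counts them more than once. HNRNPA1 alone had a log2 ratio in the authors' deposited table of -3.03 with a standard error of 0.98. HNRNPM minus HNRNPA1, the extremes of the family, came to 4.72, and its 95% interval ran from 2.27 to 7.17. Since the pair was picked by its ratios and includes this uncertain row, the interval is a description and no test.

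**Figure D3:**
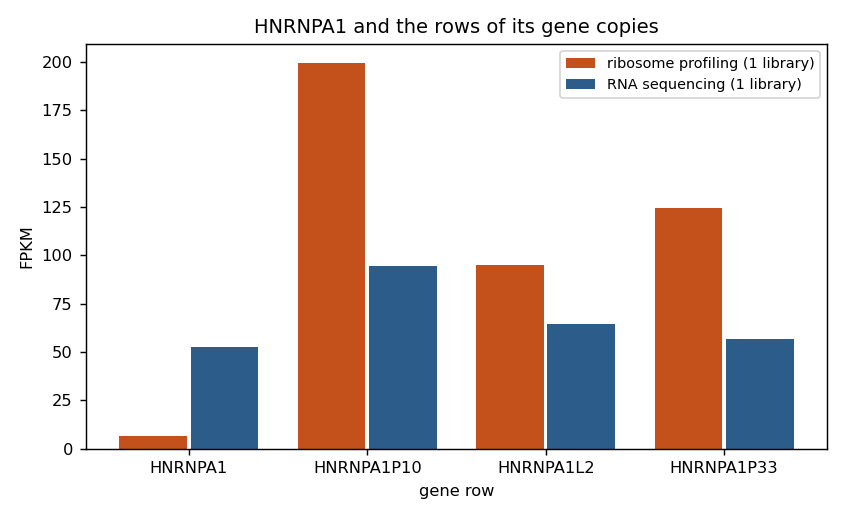
FPKM of HNRNPA1 and of 3 rows named as its gene copies in ribosome profiling (left bars) and RNA sequencing (right bars), 1 library each. The row HNRNPA1P10 has the same locus as HNRNPA1. HNRNPA1 has 6.47 FPKM in ribosome profiling and 52.9 FPKM in RNA sequencing, whereas each of the 3 other rows is higher in ribosome profiling.

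Other members with named copies kept their side of the median gene when the copies were added. HNRNPA3 with HNRNPA3P1 was 1.75-fold above it, HNRNPC with HNRNPCL1 was 1.05-fold above, HNRNPK with HNRNPKP3 was 1.42-fold above and SNRPD2 with SNRPD2P2 was 1.22-fold above.

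The snRNP proteins had the highest median of the 5 families. All 12 genes were tested, with a median ratio of 0.71, 1.63-fold above the median gene. Above it stood 10 of 12 (83.3%), against 50.7% of tested genes without small RNA genes. At least 2-fold above were 2 (16.7%), against 13.1% of all tested genes. None was at least 2-fold below, against 19.7%. Their rows summed to 792 FPKM in ribosome profiling and 457.0 FPKM in RNA sequencing. The standard deviation of the ratio was 0.58, smaller than the authors' model error of most members.

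The Sm ring consists of SNRPB, SNRPD1, SNRPD2, SNRPD3, SNRPE, SNRPF and SNRPG, each present once in every ring. SNRPD2 had the highest mean level of all 52 rows, with 246 FPKM in ribosome profiling and 155 FPKM in RNA sequencing. It lay 1.21-fold above the median gene. HNRNPA1 summed with the rows of its copies was higher, at 425 FPKM in ribosome profiling and 269 FPKM in RNA sequencing. That sum may count reads that match several of its rows more than once. SNRPG had 93.9 FPKM in ribosome profiling and 49.9 FPKM in RNA sequencing, 1.42-fold above. SNRPF had 65.8 FPKM in ribosome profiling and 31.9 FPKM in RNA sequencing, 1.55-fold above. SNRPB, which encodes SmB and SmB′, was alone among the 7 below the median gene, at 92.4 FPKM in ribosome profiling and 96.02 FPKM in RNA sequencing. Its locus on chromosome 20 also holds the small nucleolar RNA SNORD119.

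SNRPD3 had 65.06 FPKM in ribosome profiling and 20.1 FPKM in RNA sequencing, 2.39-fold above the median gene. SNRPD1 had 23.5 FPKM in ribosome profiling and 9.91 FPKM in RNA sequencing, 1.72-fold above, and SNRPE had 16.7 FPKM in ribosome profiling and 6.59 FPKM in RNA sequencing, 1.78-fold above. The 3 Sm genes that are lowest in RNA sequencing thus had the highest ratios of the ring. RNA sequencing is the denominator of the ratio, so a low value there raises the ratio by construction, error included. Between the lowest and the highest of the 7 there was a 14.7-fold range in ribosome profiling and a 23.5-fold range in RNA sequencing. Without SNRPE, the lowest in both, the ranges were 10.5-fold in ribosome profiling and 15.6-fold in RNA sequencing. Without SNRPD2, the highest in both, they were 5.62-fold in ribosome profiling and 14.6-fold in RNA sequencing. The standard deviation of log2 FPKM over the 7 genes was 1.30 in ribosome profiling and 1.66 in RNA sequencing. Whether the ranges differ beyond error was not tested.

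The proteins specific to U1 or U2 snRNP were also mostly above the median gene, 4 of 5. SNRNP70, the U1 protein that SR proteins contact at 5′ splice sites, had 60.3 FPKM in ribosome profiling and 24.5 FPKM in RNA sequencing, 1.84-fold above. SNRPC of U1 had 52.5 FPKM in ribosome profiling and 21.3 FPKM in RNA sequencing, 1.83-fold above. SNRPA, the U1 protein that binds a stem-loop of U1 RNA, had 18.8 FPKM in ribosome profiling and 19.4 FPKM in RNA sequencing, 1.35-fold below. SNRPA1, a U2 protein, had 33.3 FPKM in ribosome profiling and 16.8 FPKM in RNA sequencing, 1.47-fold above. Its partner in U2, SNRPB2, had the highest ratio of all members. It had 23.2 FPKM in ribosome profiling and 5.62 FPKM in RNA sequencing, 2.79-fold above, and lies on chromosome 20 from 16710609 to 16722417.

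SNRPB2 had a log2 ratio of 2.05 in the authors' deposited table, at a standard error of 0.93 and a q-value of 0.279, and SNRPB had -0.06 at a standard error of 0.75. SNRPB2 minus SNRPB, again a pair picked as the extremes, came to 2.10, and its 95% interval, -0.24 to 4.45, includes 0. For SNRPD2 and SNRPG the authors' deposited table gave 0.67 and 0.91 with standard errors of 0.95 and 0.85, and for SNRPD3 1.69 with a standard error of 0.87.

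The LSM genes, which encode the ring of U6 snRNP, lay mostly below the median gene. In deposited values 5 of the 6 rows were lower in ribosome profiling and 1 was higher. Of all 21856 rows without small RNA genes 8712 were lower, 5468 were higher and 7674 were at 0 in both libraries. The 4 LSM genes that passed the filter had a median ratio of -0.82, 1.77-fold below the median gene. At least 2-fold below were 2 of the 4, against 19.7% of all tested genes. None was at least 2-fold above, against 13.1%, and 4 genes are too few to read these counts closely. LSM4, on chromosome 19 from 18417040 to 18434001, had 5.54 FPKM in ribosome profiling and 15.4 FPKM in RNA sequencing, 3.29-fold below. LSM7 had 29.9 FPKM in ribosome profiling and 48.7 FPKM in RNA sequencing, 2.11-fold below. LSM2, listed on an alternative haplotype of chromosome 6, had 11.5 FPKM in ribosome profiling and 13.1 FPKM in RNA sequencing, 1.48-fold below.

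LSM3 was the exception, with 36.8 FPKM in ribosome profiling and 17.98 FPKM in RNA sequencing, 1.52-fold above the median gene. Below the filter, LSM5 had 2.35 FPKM in ribosome profiling and 4.08 FPKM in RNA sequencing, and LSM6 had 1.48 FPKM in ribosome profiling and 3.79 FPKM in RNA sequencing. LSM4, at a mean of 10.5 FPKM, was the member closest above the filter. The range over the 6 rows was 24.9-fold in ribosome profiling and 12.9-fold in RNA sequencing. Without LSM6 it was 15.7-fold in ribosome profiling and 11.9-fold in RNA sequencing, and without LSM7 it was 24.9-fold in ribosome profiling and 4.75-fold in RNA sequencing. LSM3 had a log2 ratio of 1.03 ± 0.96 and LSM4 of -1.48 ± 0.97 (standard error) in the authors' deposited table. LSM7 had -0.71 ± 0.99 and LSM2 -0.19 ± 1.09 in the authors' deposited table. The 95% interval for LSM3 minus LSM4, picked as the extremes, ran from -0.16 to 5.19.

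U2AF and SF3B subunits were near the median gene, apart from SF3B2 and SF3B5. The 5 tested genes had a median ratio of 0.22, 1.16-fold above. None lay past 2-fold on either side, against shares of 13.1% (higher) and 19.7% (lower) among all tested genes. With only 5 genes, the absence of such members says little. U2AF1, which reads the AG at the 3′ splice site, had 64.5 FPKM in ribosome profiling and 39.8 FPKM in RNA sequencing, 1.22-fold above. Its partner U2AF2, which binds the polypyrimidine tract, had 23.1 FPKM in ribosome profiling and 14.8 FPKM in RNA sequencing, 1.16-fold above. SF3B1, the largest SF3B subunit, which holds the branch point, had 45.8 FPKM in ribosome profiling and 30.9 FPKM in RNA sequencing, 1.12-fold above. These 3 central recognition factors therefore differed from the median gene by less than the authors' model error.

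SF3B2 had 56.2 FPKM in ribosome profiling and 21.01 FPKM in RNA sequencing, 1.99-fold above the median gene. SF3B5, a small subunit, had 40.4 FPKM in ribosome profiling and 59.03 FPKM in RNA sequencing, 1.90-fold below. SF3B4, below the filter, had 11.6 FPKM in ribosome profiling and 6.81 FPKM in RNA sequencing. The authors' deposited table gave 1.42 ± 0.93 for SF3B2, -0.55 ± 0.87 for SF3B5 and 0.69 ± 0.85 for U2AF1 (log2 ratio and standard error). The 95% interval for SF3B2 minus SF3B5, picked as the extremes, ran from -0.53 to 4.47.

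The remaining splicing genes were taken from lists of the same pathway, and they lay at the median gene. Of 119 rows, 53 were tested, with a median ratio of -0.03. At least 2-fold above the median gene were 2 (3.77%), against 13.1% of all tested genes, and 6 were at least 2-fold below (11.3%), against 19.7%. The same shares of all tested genes stand beside the counts of each list that follows. Other genes of the SR and hnRNP families had a median of -0.22 over 10 tested rows, with none at least 2-fold above and 1 at least 2-fold below. The most abundant were SYNCRIP, with 68.6 FPKM in ribosome profiling and 35.4 FPKM in RNA sequencing, and RBMX, with 59.4 FPKM in ribosome profiling and 41.1 FPKM in RNA sequencing. HNRNPUL1 had the lowest ratio of this list, with 25.4 FPKM in ribosome profiling and 48.7 FPKM in RNA sequencing. Other genes of U1, U2 and the tri-snRNP had a median of -0.04 over 19, with none above 2-fold and 2 below. Their extremes were LUC7L2, with 28.3 FPKM in ribosome profiling and 10.9 FPKM in RNA sequencing, and TXNL4A, with 6.57 FPKM in ribosome profiling and 14.97 FPKM in RNA sequencing. Highest in mean level were SF3B14, a further SF3B subunit, with 44.1 FPKM in ribosome profiling and 22.4 FPKM in RNA sequencing, and PUF60, with 40.5 FPKM in ribosome profiling and 30.5 FPKM in RNA sequencing.

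Factors of the Prp19 complex and the catalytic steps had a median of 0.04 over 11 genes, with 1 at least 2-fold above and 1 below. The extremes were SNW1, with 37.3 FPKM in ribosome profiling and 12.1 FPKM in RNA sequencing, and CDC5L, with 9.44 FPKM in ribosome profiling and 20.7 FPKM in RNA sequencing. DHX15, a helicase, had 41.8 FPKM in ribosome profiling and 29.2 FPKM in RNA sequencing, and BUD31 had 35.6 FPKM in ribosome profiling and 25.7 FPKM in RNA sequencing. Genes of the exon junction complex and cap binding had a median of 0.04 over 9, with none above 2-fold and 2 below. ALYREF, an export adaptor, had 85.01 FPKM in ribosome profiling and 68.7 FPKM in RNA sequencing, and DDX39B, an export helicase, had 80.7 FPKM in ribosome profiling and 43.96 FPKM in RNA sequencing. The extremes were MAGOH, a core subunit, with 22.3 FPKM in ribosome profiling and 9.28 FPKM in RNA sequencing, and RNPS1, with 6.43 FPKM in ribosome profiling and 18.7 FPKM in RNA sequencing. No gene of these lists was called in the authors' deposited table, against 1.3% of the 4849 rows that it tested.

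**Figure D4:**
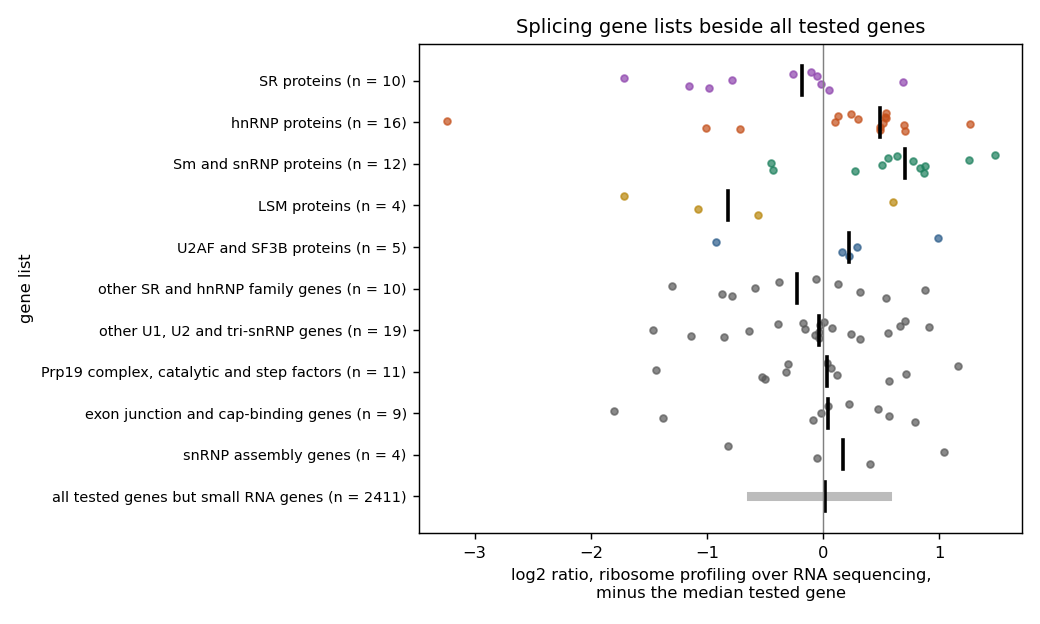
Ratio of ribosome profiling over RNA sequencing minus that of the median tested gene, on the log2 scale, for tested genes of 5 splicing-factor families and 5 further splicing lists. Points are genes, black lines are medians, and for all tested genes without small RNA genes the grey bar runs from the lower to the upper quartile, -0.62 to 0.55. The snRNP and hnRNP medians are 0.71 and 0.49, and those of the further lists run from -0.22 to 0.17.

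Features of the transcripts were next set beside the ratios. Footprints lie in the coding sequence, whereas FPKM is scaled by a transcript length, so the coding share of the principal GENCODE 29 transcript was taken for all 52 genes. Where principal transcripts of equal rank had the same coding length, the longest was taken, which gives the lowest share. The shares, correlations and rescaled medians that follow rest on this choice, and no other choice was tried. The median share was 33.9% in SR genes, 46.4% in hnRNP genes, 38.3% in snRNP genes, 17.1% in LSM genes and 68.2% in U2AF and SF3B genes, against 54.2% in 2155 tested genes. Across the 47 tested members the ratio and the coding share had a Spearman rho of 0.03, and across the 2155 genes a rho of 0.08. These are descriptions across genes, which share both libraries. When ribosome profiling FPKM was rescaled to coding length, the SR median was 0.60 above that of the tested genes and the U2AF and SF3B median 0.27 below it. Both therefore changed sign. The LSM median moved to -0.22 and kept its sign, and the snRNP and hnRNP medians were 0.84 and 0.45. The sources used here do not give the lengths that the authors used.

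**Figure D5:**
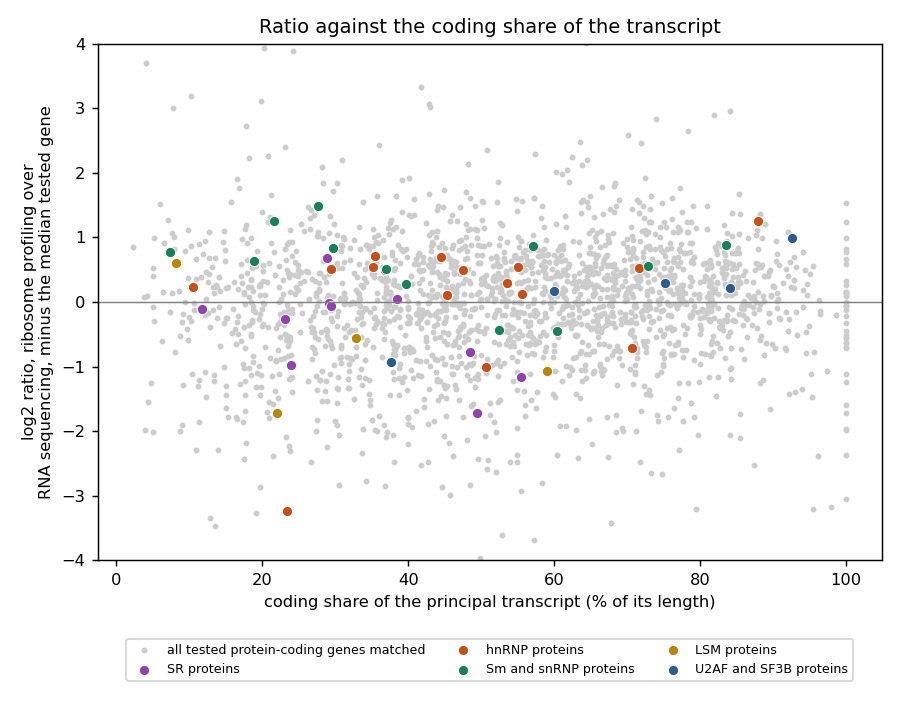
Ratio of ribosome profiling over RNA sequencing minus that of the median tested gene, on the log2 scale, against the coding share of the principal transcript in percent of its length. Coloured points are 47 tested splicing-factor genes and grey points 2155 tested protein-coding genes, of which 22 lie outside the axis. The coloured points have a Spearman rho of 0.03.

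All 12 SR genes had at least 1 transcript annotated for nonsense-mediated decay in GENCODE 29, with a median of 2 per gene. The same held for 11 of 16 hnRNP genes, 5 of 12 snRNP genes, 4 of 6 LSM genes and 3 of 6 genes of U2AF and SF3B, and for 44.6% of the 2155 tested genes. HNRNPU had the most among the members, 9, and SRSF7 had 6. The deposited values are per gene and do not tell these transcripts from the coding ones. Encoded proteins had a median length of 267 residues for SR genes, 142.5 for snRNP genes and 98.5 for LSM genes. The snRNP and LSM families, with the shortest proteins, thus stood at opposite ends of the ratios.

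mRNAs whose first bases are a C and a run of pyrimidines, the 5′ terminal oligopyrimidine type of ribosomal protein mRNAs, are under translational control by growth signalling. RefSeq promoters, build GRCh38.p14, were found for 48 of the 53 genes, and SRSF2, TRA2A, HNRNPA1, SNRPD1 and LSM6 had none. A start with a C followed by at least 4 pyrimidines, read on the transcribed strand, was present in 6 of the 48 genes (12.5%), against 11.6% of 1710 tested genes and 5.14% of 27305 genes in the table. Besides LSM8, the 5 with a row are shown from 15 bases before to 15 bases after the start, with the pyrimidine run in capitals.
SNRPD2 at chr19:45691939-45691968, minus strand: aagaggaagtcccgcCTCTCTCTCCTCagg
HNRNPA0 at chr5:137754349-137754378, minus strand: cgcgcgttcagcggcCTCTTTgtgtggtgc
SNRPA at chr19:40751188-40751217, plus strand: aatctctcgagagttCTCTCCgcacgcggg
LSM2 at chr6:31806952-31806981, minus strand: tttcccggcttcctcCTCCCCTCTactcta
SRSF9 at chr12:120469734-120469763, minus strand: tttgcctccgccgacCCCTTCgcttccgct
Their ratios were 0.28, 0.24, -0.43, -0.56 and -1.16, on both sides of the median gene. SNRPD2 has other RefSeq starts without the run. Over tested genes in the table the median ratio was -0.06 in 198 genes with such a start and 0.06 in 1512 without.

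Members were spread over the genome, with 9 of 52 on chromosome 19 and 7 on chromosome 1. The locus of 9 members also held another row, which for HNRNPA1 and SNRPB was a tested one. Whether counting used strand is not given in the sources used here.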

How the data were processed

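Total RNA and ribosome-protected fragments of transfected SW13 cells were read at 50 nt from both ends, per the labels' protocols. Both libraries were made with the ARTseq kit. Tools in the submitters' processing notes are Bowtie2 (2.0.0.6), TopHat2 (2.0.8b), bedtools (2.16.1) and SAMtools (0.1.18). Those notes list mm10 beside hg19 without saying how either was used. The deposited table holds 1 FPKM value per gene and library, with the authors' log2 ratio, statistic, p-value and q-value. Its layout and values mark the unit as FPKM. The sources used here name neither the program that wrote it nor any scaling between libraries.

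The pseudocount was 1 FPKM, which understates the ratio of low genes. Rows with the status FAIL or HIDATA or a mean under 10 FPKM were left out, and the median over the remaining 2734 rows was subtracted. With 1 library per assay no test was run. The standard error was the deposited log2 ratio over the statistic, since the deposited p-value matched a normal p of that statistic within 0.001 in 100% of finite OK rows.

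The members and lists were chosen with earlier results of these data known. Every member is given with both levels. In each family the 3 of highest mean and those of extreme ratio, and in each further list the 2 of highest mean and the extremes, were named. One gene that this rule names is not reported here. Small RNA genes were set apart by symbol. Transcripts were principal APPRIS transcripts of GENCODE 29, taken by best rank, then longest coding sequence, then longest transcript. The ratio step was tested on simulated data. Python 3.11.15 and pandas 2.3.3 were used.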

Additional observations from a re-analysis of the deposited data

How the results depend on the processing

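With 1 library per assay and unknown depth, a family median was taken as moved past 1.5-fold. Over all results and alternative settings, 73 values stayed within that limit and kept their sign, 10 moved and 6 changed sign. The SR median, -0.18, was 0.36 with a filter of 1 FPKM, 0.20 with no filter, 0.20 without centring, 0.22 with libraries scaled by their FPKM sum without small RNA genes and 0.60 per coding length. Under the first 4 of these the value subtracted was -0.16 or 0, against 0.39, a shift common to all genes. The number of members at least 2-fold higher, 3 of 47 against 13.1% of tested genes, was 21 of 52 against 15.5% with a filter of 1 FPKM, 12 of 52 against 5.99% with no filter, 12 of 47 against 23.6% without centring and 13 of 47 against 24.6% with scaled libraries. The number at least 2-fold lower, 6 against 19.7%, was 3 under each of these, against 19.6%, 13.5%, 14.2% and 14.1%. Per coding length, a setting added after the data were seen, the U2AF and SF3B median was -0.27 and the LSM median -0.22. Without SNRPE the range of the Sm ring in RNA sequencing was 15.6-fold, against 23.5-fold with it. The hnRNP and snRNP medians stayed above 0 and the LSM median below 0 under every setting run. No paired analysis was possible because each assay has 1 library, so no replicate could be left out either.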

Other observations

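Genes that modify SR proteins or assemble snRNPs complete the pathway. None of the 9 SR protein kinase rows reached a mean of 10 FPKM, which 11.6% of all rows did, and together the 9 summed to 43.2 FPKM in ribosome profiling and 50.02 FPKM in RNA sequencing. Of 14 rows for snRNP assembly, 4 were tested, with a median ratio of 0.17. The joint row of SMN1 and SMN2, near-identical genes whose protein loads Sm rings onto small nuclear RNAs, had 32.5 FPKM in ribosome profiling and 11.4 FPKM in RNA sequencing, 2.06-fold above the median gene. STRAP, a subunit of the same complex, had 60.9 FPKM in ribosome profiling and 48.2 FPKM in RNA sequencing, and CLNS1A, which chaperones Sm proteins, had 16.99 FPKM in ribosome profiling and 23.2 FPKM in RNA sequencing.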
